A study of Mus musculus with 56 samples.

Results

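Untreated mammary tumor cells with 2 floxed, unrecombined β-catenin alleles (fl/fl) were compared with untreated tumor cells of 6 genotypes that carry a mutant β-catenin allele. The genes described here are those for which all 4 untreated fl/fl values lay outside the range of the 24 untreated mutant values, and 354 of the 20314 genes in the table (1.74%) met this rule. The rule itself used the untreated values, so these are given as a description, and tests are given only for the treated samples and for gene lists that the rule did not choose.

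β-catenin, encoded by Ctnnb1, joins cadherins to the actin cytoskeleton at cell contacts and acts in the nucleus as a co-activator for TCF/LEF factors when Wnt ligands block its destruction. Bcl9 and Bcl9L bind its N-terminal part, and other co-activators bind its C-terminal part. In the mammary gland, Wnt signaling maintains stem and progenitor cells, and its target genes are induced in many breast tumors.

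The lines were derived from thoracic mammary tumors of 12-week-old female MMTV-PyMT mice (FVB/N), in which the mouse mammary tumor virus promoter drives polyoma middle T antigen in the mammary epithelium. The 6 mutant genotypes were D164A/fl, D164A/-, ΔC/fl, ΔC/-, dm/fl and dm/-, where D164A, ΔC and dm name the mutant β-catenin allele, fl a floxed allele that is left whole, and "-" a floxed allele recombined by adenoviral Cre, after which GFP-positive cells were sorted. The fl/fl cells carried the PyMT transgene like all the others but no mutant allele and no recombined allele. Each genotype had 2 untreated and 2 treated samples in each of 2 experiments, 56 samples in all. Treatment lasted 3 days at 100 ng/ml in the Wnt3a experiment and 4 days at 2 ng/ml in the TGFβ experiment. Each mutant "/-" line was made from cells of its "/fl" genotype, and nothing in the labels ties a replicate number to a line of its own. The study used 2 fl/fl lines in another assay, and whether the 4 untreated fl/fl samples come from 1 line or from both is not given in the sources used here. Genotype and cell line therefore cannot be told apart in any comparison below, and p-values measure the spread between replicate samples, not between lines.

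Values are read counts scaled to the library size (CPM), with 23.1 to 33.7 M reads behind each untreated sample, so that 3 reads corresponded to 0.0917 to 0.136 CPM. All 28 untreated samples correlated best with another sample of their own genotype over the 2000 most variable genes. The sample dm/fl untreated Wnt3a replicate 1 stood apart from the other dm/fl samples, and leaving it out gave 202 higher and 165 lower range-separated genes past the filter on low values, against 185 and 141 with it. A gene is called higher or lower where limma on log2(CPM + 1) gave an adjusted p of 0.05 or less and a difference of 1 or more on the log2 scale between fl/fl and the mean of the mutant genotypes. Ctnnb1 (Entrez 12387), on chromosome 9, was expressed at 978, 1008, 815 and 1045 CPM in the fl/fl samples, within the mutant range of 612 to 2161 CPM (log2 difference -0.10, limma adjusted p = 0.572). In this and in every list of 4 values that follows, the order is Wnt3a experiment replicate 1, replicate 2, TGFβ experiment replicate 1, replicate 2.

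Markers of mammary epithelium were present. Krt8 and Krt18, the simple epithelial keratins, had 371 to 649 CPM and 785 to 941 CPM in the fl/fl samples, and Epcam and the E-cadherin gene Cdh1 had 343 to 512 and 633 to 966 CPM. Of the other cell types, the leukocyte marker Ptprc reached 0.0383 CPM, the fibroblast marker Thy1 was at 0, and the endothelial marker Kdr was at 0 in all 4 fl/fl samples. Over the whole lists, the summed level of 12 fibroblast genes was 5.65 to 17.5 CPM in the fl/fl samples and 6.60 to 779.8 CPM in the mutant samples, that of 10 leukocyte genes 53.0 to 75.5 against 1.74 to 533 CPM, that of 8 endothelial genes 0.221 to 0.575 against 0.119 to 1.69 CPM, and that of 7 adipocyte genes 1.39 to 2.99 against 0.0776 to 23.99 CPM. Most of the leukocyte sum in fl/fl cells came from Csf1r, the receptor for colony-stimulating factor 1, at 55.7, 51.2, 56.1 and 72.2 CPM. Fewer cells of one type and less RNA per cell cannot be told apart in bulk samples.

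The stretches below are the 250 bases upstream of a RefSeq transcript start (GRCm38.p6) of members that the results turn on, with every CG dinucleotide in capitals. Mtap and Prdx4 had the largest gaps among the lower genes, Hoxa5 and Hoxa6 belong to the longest run of neighboring members, and Adm and Il1a are among the higher genes. Mtap lies at chr4:89137120-89137369 on the plus strand, Prdx4 at chrX:155338461-155338710 on the minus strand, Hoxa5 at chr6:52204588-52204837 and Hoxa6 at chr6:52208673-52208922 on the minus strand, Adm at chr7:110627407-110627656 on the plus strand and Il1a at chr2:129309973-129310222 on the minus strand.
Mtap: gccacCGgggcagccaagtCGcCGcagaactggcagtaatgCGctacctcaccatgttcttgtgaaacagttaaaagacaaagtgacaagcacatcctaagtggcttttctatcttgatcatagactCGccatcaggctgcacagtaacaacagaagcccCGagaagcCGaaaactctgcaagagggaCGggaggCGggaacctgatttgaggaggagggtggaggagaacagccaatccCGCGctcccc
Prdx4: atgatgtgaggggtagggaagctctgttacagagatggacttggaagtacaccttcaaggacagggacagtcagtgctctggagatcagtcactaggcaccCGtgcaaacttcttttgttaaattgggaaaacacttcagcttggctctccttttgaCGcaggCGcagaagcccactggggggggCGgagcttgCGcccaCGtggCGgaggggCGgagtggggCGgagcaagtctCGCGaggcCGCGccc
Hoxa5: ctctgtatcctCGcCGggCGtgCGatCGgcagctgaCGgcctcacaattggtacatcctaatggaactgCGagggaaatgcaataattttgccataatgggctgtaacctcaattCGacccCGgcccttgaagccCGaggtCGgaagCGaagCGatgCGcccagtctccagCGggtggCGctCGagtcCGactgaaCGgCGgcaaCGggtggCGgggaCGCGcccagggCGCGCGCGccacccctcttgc
Hoxa6: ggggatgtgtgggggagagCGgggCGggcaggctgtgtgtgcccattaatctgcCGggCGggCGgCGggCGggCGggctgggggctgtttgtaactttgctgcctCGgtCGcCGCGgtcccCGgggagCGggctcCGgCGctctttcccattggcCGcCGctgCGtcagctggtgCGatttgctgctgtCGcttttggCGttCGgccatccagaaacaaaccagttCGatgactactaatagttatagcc
Adm: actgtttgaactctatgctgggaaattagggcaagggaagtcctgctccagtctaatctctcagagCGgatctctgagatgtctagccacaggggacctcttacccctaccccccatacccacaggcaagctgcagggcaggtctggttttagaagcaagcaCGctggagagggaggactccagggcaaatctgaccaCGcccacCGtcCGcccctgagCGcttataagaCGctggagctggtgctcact
Il1a: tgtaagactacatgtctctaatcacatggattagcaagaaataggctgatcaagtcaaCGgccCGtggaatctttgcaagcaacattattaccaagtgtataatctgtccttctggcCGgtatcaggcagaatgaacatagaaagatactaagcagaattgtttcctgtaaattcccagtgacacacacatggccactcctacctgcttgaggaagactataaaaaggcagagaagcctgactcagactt
Hoxa5 and Hoxa6 hold 28 and 24 CG dinucleotides in these 250 bases, Prdx4 and Mtap 13 and 11, Adm 7 and Il1a 3. Over the 300-base windows around the start (250 bases before and 50 after), the median number of CG dinucleotides was 13 for 147 promoters of 117 higher genes, 21 for 157 promoters of 112 lower genes and 20 for all 13437 promoters of the 10524 matched genes past the filter. Not every member had a matched promoter, and Lox, the higher gene with the widest gap, is not in these sets. The TCF/LEF motif, searched as CTTTGAT and CTTTGAA on both strands, was found in 4.76% of the promoters of higher genes, 8.28% of those of lower genes and 5.97% of all. One of the matches lies upstream of Cxcl12, at chr6:117168285-117168534 on the plus strand, where the motif, read on the opposite strand, is in capitals.
Cxcl12: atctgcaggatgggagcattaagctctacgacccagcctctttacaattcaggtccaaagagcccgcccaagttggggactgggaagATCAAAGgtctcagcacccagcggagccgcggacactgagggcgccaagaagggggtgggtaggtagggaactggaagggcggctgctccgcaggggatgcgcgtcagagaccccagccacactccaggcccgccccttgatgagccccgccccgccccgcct

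Of the 354 range-separated genes, 212 were higher (1.04% of the table) and 142 lower (0.699%) in the fl/fl cells. A total of 326 passed the filter of at least 1 CPM in at least 2 untreated samples, or 2.44% of the 13340 genes that passed it, with 185 higher (1.39%) and 141 lower (1.06%). Among the 185 higher genes, 44 passed that filter only through the fl/fl samples. The gap between the nearest fl/fl and mutant values was at least 2-fold on CPM + 1 for 41 higher and 17 lower genes, and its median was 0.29 on the log2 scale for the higher and 0.22 for the lower genes. Most members therefore lay close to the edge of the rule. Without the fl/fl sample TGFβ experiment replicate 1, 306 genes would have been higher and 276 lower. Kif27 was just inside, with a lowest fl/fl value of 21.32 CPM against a highest mutant value of 21.31 CPM, and Zfp407 was just outside with 48.13 CPM on both sides. On the lower side, Rcn1 was just inside, with a highest fl/fl value of 0.422 CPM against a lowest mutant value of 0.425 CPM, and Sdhc just outside, with 93.0 against 92.9 CPM.

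The same rule was applied to each other genotype in turn. The fl/fl cells, with 326 genes past the filter, came after dm/- with 474, ΔC/- with 473 and D164A/- with 376, and before dm/fl with 246, D164A/fl with 104 and ΔC/fl with 102. Each "/-" genotype has a "/fl" genotype of the same mutant allele, and the fl/fl cells have no such partner among these samples. Whether the samples of such a pair share a parental line is not given in the sources used here. The fl/fl cells were therefore not the genotype with most genes outside the range of the others.

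**Figure D1:**
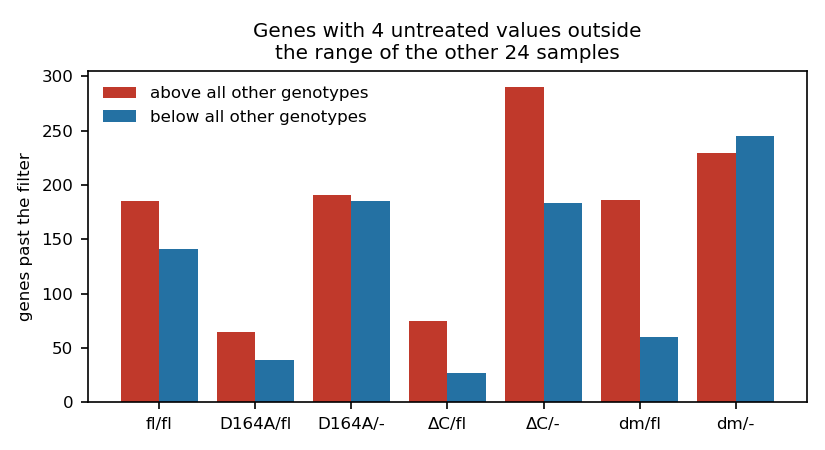
Number of genes past the filter (vertical axis) with all 4 untreated values of 1 genotype above (red) or below (blue) the range of the other 24 untreated samples, for each of the 7 genotypes. The fl/fl cells have 185 genes above and 141 below, fewer in total than each "/-" genotype and more than each "/fl" genotype with a mutant allele.

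The widest gap on the higher side was that of a matrix enzyme, and 3 other members that act in the matrix are given after it. Lox (Entrez 16948), the lysyl oxidase that crosslinks collagen and elastin, had 655, 928, 227 and 451 CPM in the untreated fl/fl samples and 0 to 2.61 CPM in the mutant samples, with a mutant median of 0.0869 CPM. No fl/fl value came near the mutant range, and the gap was 5.98 on the log2 scale. Sulf1, which removes sulfate groups from heparan sulfate, had 52.5, 59.2, 28.2 and 31.8 CPM against 0 to 2.94 CPM. Nid1, the basement membrane linker nidogen-1, had 38.7, 77.8, 18.96 and 49.3 CPM against 0 to 5.75 CPM. Col12a1, a fibril-associated collagen, was at 1243, 1149, 867 and 1093 CPM against 19.6 to 640 CPM, so that it was expressed in every mutant sample as well, unlike Lox and Sulf1.

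Other secreted and surface proteins were above the mutant range as well, and the 5 that follow were picked from the members by their known roles. Il1a, the cytokine interleukin-1α, had 838, 660, 563 and 394 CPM against 0.215 to 78.3 CPM. Cxcl5, a neutrophil chemokine, was at 2112, 3270, 1126 and 2054 CPM against 3.36 to 829 CPM. Adm, the vasoactive peptide adrenomedullin, had 69.3, 130.3, 68.1 and 96.5 CPM against 0 to 4.76 CPM. The fl/fl values of each of these 3 genes varied from sample to sample and still left a gap to every mutant sample. Thbd (thrombomodulin) had 106, 91.9, 102 and 97.5 CPM against 0 to 16.0 CPM, and Procr, the endothelial protein C receptor that also marks a mammary stem cell population, had 78.6, 113, 48.4 and 84.3 CPM against 0 to 10.9 CPM. Both proteins take part in protein C activation, and both had their highest mutant values far below the lowest fl/fl value.

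Among the structural genes of epithelium, Krt19 (Entrez 16669), a keratin of luminal cells, had 28.4, 24.3, 47.4 and 53.5 CPM in the fl/fl samples and 0 to 0.343 CPM in the mutant samples. The mutant lines were thus near the counting limit for this keratin while they expressed Krt8 and Krt18. Prrx1, a homeobox factor of mesenchyme, had 163, 137, 94.8 and 92.6 CPM against a mutant median of 0.0330 CPM, with a single genotype, dm/fl, at 9.71 to 64.5 CPM and the other 5 at most at 4.71 CPM. Cavin3, a coat protein of caveolae, had 2.18, 1.92, 2.54 and 3.48 CPM against 0 to 0.0319 CPM. Egfr, the epidermal growth factor receptor, was at 170.5, 161, 186 and 133 CPM against 26.6 to 127.5 CPM.

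Enzymes, transporters and other genes were also among the 15 widest gaps on the higher side. As3mt, the arsenic methyltransferase, had 26.4, 18.2, 33.7 and 23.4 CPM against 0 to 0.613 CPM. Ch25h, which hydroxylates cholesterol, had 11.7, 8.47, 6.20 and 11.6 CPM against 0 to 0.669 CPM, and Slc16a3, the lactate exporter MCT4, had 13.9, 5.10, 3.78 and 21.6 CPM against 0 to 0.160 CPM. Eya1, a transcription co-factor of organ development, had 28.6, 26.2, 25.2 and 25.2 CPM against 0 to 5.04 CPM, and its fl/fl values differed least among the genes listed here. Gipc2, Fndc3c1 and 2210016F16Rik had fl/fl values of 8.33 to 12.1, 7.37 to 63.0 and 24.8 to 38.6 CPM against highest mutant values of 0.510, 0.0828 and 1.65 CPM. Tdg, a thymine DNA glycosylase, and its pseudogene Tdg-ps2 had fl/fl values of 9.02 to 10.96 and 8.91 to 10.8 CPM, nearly equal in each sample. Reads of these 2 near-identical copies cannot be assigned with confidence, so both are uncertain.

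**Figure D2:**
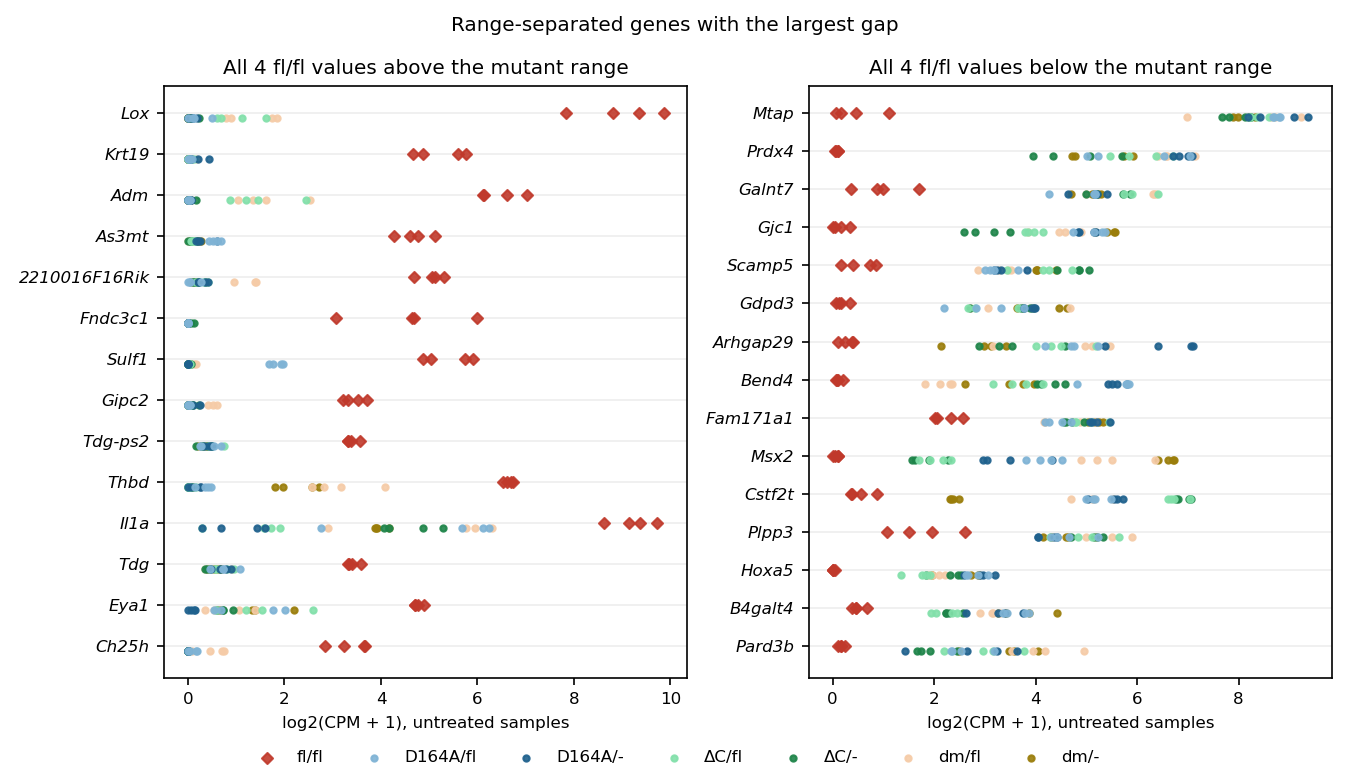
Untreated values of 14 of the 15 higher genes and of the 15 lower genes with the largest gap past the filter, as log2(CPM + 1) on the horizontal axis, 1 point per sample, with fl/fl samples as red diamonds and mutant samples as colored circles. For Mtap the 4 fl/fl values lie below 1.16 CPM and the mutant values above 125 CPM, and for Lox the order is the opposite, with 227 CPM as the lowest fl/fl value.

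On the lower side, the widest gap was that of Mtap (Entrez 66902), the methylthioadenosine phosphorylase of the methionine salvage pathway, on chromosome 4 from 89137370 to 89181090. Its values were 0.126, 0.383, 0.0403 and 1.16 CPM in the fl/fl samples and 125 to 662.5 CPM, with a median of 324 CPM, in the mutant samples. Mtap lies beside the cell cycle inhibitor genes Cdkn2a and Cdkn2b. Cdkn2a was at 0.0315, 0.0383, 0 and 0 CPM and Cdkn2b at 0, 0.115, 0 and 0.412 CPM in the fl/fl samples. Neither was range-separated, since all dm/- samples were also at 0.0791 CPM or lower for both, whereas the other 5 mutant genotypes had 0.553 to 123 CPM of Cdkn2a and 4.32 to 154 CPM of Cdkn2b. The dm/- cells expressed Mtap in full, at 238 CPM or more. The lncRNA gene Gm12610, which starts beside Cdkn2a and whose span from 89295180 to 89518621 holds Cdkn2b, was higher in fl/fl cells, with 8.33, 9.51, 5.92 and 7.34 CPM against 0 to 1.28 CPM. Reads were counted in exons. Wherever exons of Gm12610 and Cdkn2b overlap, their reads cannot be told apart unless strand was used in counting, so both are uncertain. Dmrta1, a neighbor of Cdkn2b, was called higher without being range-separated, at 4.23, 3.34, 20.3 and 3.26 CPM against 0 to 50.5 CPM (log2 difference 2.08, standard error 0.30, limma adjusted p = 2.39e-05).

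Prdx4 (Entrez 53381), a peroxiredoxin of the endoplasmic reticulum on the X chromosome, was at 0.0315, 0.0766, 0.0403 and 0.0748 CPM, which is 1 or 2 reads per sample, against 14.4 to 141 CPM in the mutant samples. Galnt7, an enzyme of mucin-type O-glycosylation, had 0.978, 2.26, 0.282 and 0.823 CPM against 18.2 to 84.3 CPM. Gjc1, the gap junction protein of the connexin family, had 0, 0.0383, 0.121 and 0.262 CPM against 5.01 to 46.2 CPM, and its neighbor Adam11 was lower as well, with at most 0.150 CPM against 0.215 to 2.74 CPM. Cstf2t, a paralog of a polyadenylation factor, had 0.284, 0.307, 0.483 and 0.823 CPM against 3.94 to 133 CPM. Arhgap29, an activator of GTP hydrolysis by small G proteins, had 0.189, 0.307, 0.322 and 0.0748 CPM against 3.40 to 136 CPM. For Prdx4, Gjc1, Cstf2t and Arhgap29 no fl/fl sample exceeded 0.823 CPM, while Galnt7 kept a low level in fl/fl cells, and Adam11 was low in the mutant samples too. Scamp5, Gdpd3, Bend4, Msx2 (a homeobox target of BMP signaling), B4galt4 and Pard3b (a polarity protein) had at most 0.805 CPM in each fl/fl sample against lowest mutant values of 1.69 to 6.25 CPM. Fam171a1 and Plpp3, a lipid phosphatase, kept a measurable level in fl/fl cells, at 3.07 to 4.92 and 1.10 to 5.11 CPM, against 17.0 to 43.5 and 15.5 to 58.4 CPM.

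Among the other lower members were a transcription factor of the Wnt pathway, a chemokine and Hox genes. Lef1 (Entrez 16842), the TCF/LEF factor that is itself a Wnt target, had no read in any of the 4 untreated fl/fl samples, where 3 reads would have been 0.0946 to 0.121 CPM, against 0.106 to 3.87 CPM in the mutant samples. Cxcl12, the ligand of Cxcr4, had 0.0631, 0.268, 0.161 and 0.0374 CPM against 0.675 to 199 CPM. Hoxa5 was at 0.0315, 0, 0 and 0 CPM against 1.56 to 8.20 CPM.

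Hoxa5 belonged to the longest run of neighboring range-separated genes, 5 genes on chromosome 6 from 52162417 to 52213067 with no other gene past the filter between them. Hoxa2, Hoxa3, Hoxa4 and Hoxa6 had at most 0.0315, 0.0403, 0.0374 and 0.0805 CPM in the fl/fl samples. The lowest mutant values were 0.0454, 0.119, 0.502 and 0.166 CPM, which for Hoxa2 is about 1 read. Hox genes encode the homeobox factors that give cells a position along the body axis, and their gene models overlap in this cluster, so that reads may be split between them. Of 26 Hox genes tested in the untreated samples, none was called higher and 10 were called lower, where 6.14% of all 13340 genes were called higher and 7.08% lower, and the median log2 difference was -0.79 against -0.04 over all genes. The 26 include the 5 range-separated Hox genes, whose direction the rule fixed. Hoxa10 was called lower without being range-separated (log2 difference -2.30, standard error 0.15, limma adjusted p = 1.02e-09). It had at most 0.0315 CPM in the fl/fl samples and 6.78 to 24.1 CPM in D164A/fl, D164A/- and ΔC/fl samples, 1.86 to 4.13 CPM in dm/fl samples, and no more than 0.155 CPM in ΔC/- and dm/- samples.

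The treated samples, which the rule did not use, gave a test of the same genes in other libraries of the same lines. Of the range-separated genes past the filter, 176 higher and 138 lower genes could be tested there. In the same limma test on the treated samples, 115 of the 176 were called higher (65.3%) and 89 of the 138 lower (64.5%), where 5.61% and 6.53% of all 13394 genes were called (12.1% in either direction). No gene was called in the opposite direction, and the sign of the difference was kept in all 314 genes. Of the 176, 33 passed the filter only through the fl/fl samples, which favors a call as higher. Of the 143 that passed it without the fl/fl samples, 84 were called higher. All 4 treated fl/fl values lay outside the range of the 24 treated mutant values for 90 of the 212 higher genes (42.5%) and 61 of the 142 lower genes (43.0%), against 0.758% and 0.576% of all 20314 genes in the table (1.33% in either direction). Among the genes past the filter on the treated samples these shares were 0.986% and 0.851% (1.84%).

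The widest gaps were seen again after treatment. Lox had 169, 526, 593 and 822 CPM in the treated fl/fl samples against 0 to 0.827 CPM (log2 difference 8.61, standard error 0.19, limma adjusted p = 3.59e-16). Mtap had 0.245, 0.0902, 0.0444 and 0.0736 CPM against 249 to 758 CPM (log2 difference -8.61, standard error 0.11, adjusted p = 1.45e-19). Krt19 had 55.0, 29.7, 25.1 and 26.3 CPM against 0 to 0.271 CPM (log2 difference 5.01, standard error 0.11, adjusted p = 2.12e-16). Prdx4 had 0, 0.0451, 0.0887 and 0.0368 CPM against at least 25.8 CPM (log2 difference -6.10, standard error 0.18, adjusted p = 1.74e-14). For these 4 genes the treated groups did not overlap either. Hoxa5 and Lef1 remained at 0 or 1 read in every treated fl/fl sample (log2 differences -2.32 and -1.54, adjusted p = 6.37e-08 and 2.93e-05), and Hoxa2 did not pass the filter on the treated samples.

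Others were less apart once treated. Il1a, still called higher (log2 difference 4.51, standard error 0.38, adjusted p = 4.48e-08), had 121, 261, 527 and 288 CPM against a mutant maximum of 502 CPM, so that the groups overlapped. Col12a1 was at 768 to 876 CPM while the mutant samples reached 1932 CPM (log2 difference 1.91, adjusted p = 1.38e-06), and Cxcl12 had 0.123 to 1.40 CPM against 0.719 to 86.1 CPM (log2 difference -2.52, adjusted p = 6.19e-06). Kif27, the gene at the edge of the rule, was not called, with 12.5, 15.9, 5.37 and 6.88 CPM against 1.25 to 22.1 CPM (log2 difference 0.28, adjusted p = 0.341).

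**Figure D3:**
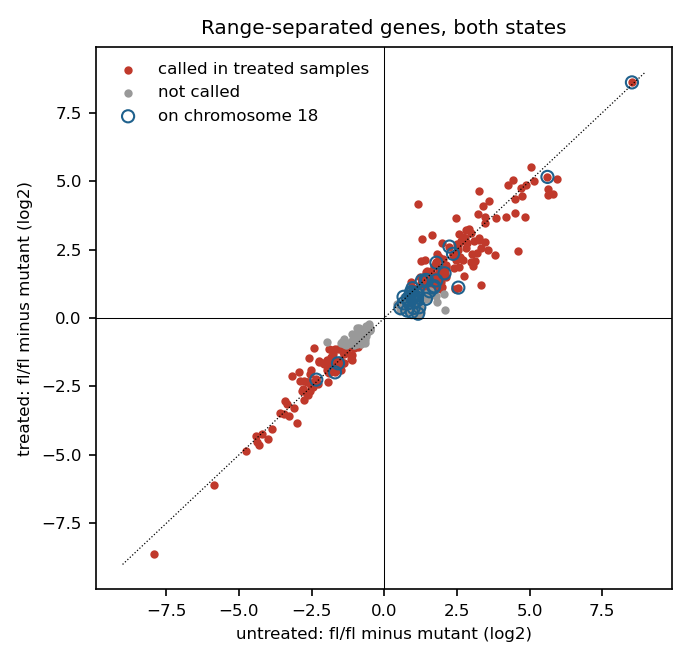
Log2 difference between fl/fl and the mean of the mutant genotypes in untreated samples (horizontal axis) and treated samples (vertical axis) for the 314 range-separated genes tested in both, with genes called in treated samples in red, others in grey and genes on chromosome 18 circled. All 314 points lie in the 2 quadrants of equal sign, which on the horizontal axis is fixed by the rule.

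The range-separated genes were not spread evenly over the genome. Chromosome 18 held 37 of the 185 higher genes past the filter, or 10.1% of its 365 genes against 1.39% of all genes, and 3 lower genes. The next highest shares were 3.05% on chromosome 6, with 20 higher genes, and 2.23% on the X chromosome, with 10. Among the 37 were 2 with a gap of at least 2-fold, Lox and the desmosomal cadherin gene Dsc2. The others showed smaller steps, as for the TGFβ signal transducers Smad2 and Smad4. Smad2 had 242, 221, 172 and 168 CPM against 24.2 to 159 CPM, and Smad4 had 285, 220, 261 and 212 CPM against 82.7 to 183 CPM. Their neighbors Ier3ip1 and Mex3c were range-separated as well, at 66.8 to 81.8 against 15.5 to 61.3 CPM and at 218 to 341 against 25.3 to 210 CPM. The promoter sets counted above hold no member on chromosome 18. Their CG and TCF/LEF motif figures therefore do not cover the 37 higher genes of this chromosome.

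Each sample's chromosomes were then summarised by the median log2 difference from the mean of the mutant genotypes of the same experiment and treatment, over the 9498 genes whose mean reached 10 CPM, centered on the sample's median over all genes. For the 273 such genes of chromosome 18 the median was 0.65 ± 0.11 (SD, n = 4) in the untreated fl/fl samples, with values of 0.51 to 0.73, and -0.39 to 0.34 in the 24 mutant samples. In the treated samples it was 0.62 ± 0.14 (SD, n = 4), with values of 0.47 to 0.79 against -0.51 to 0.41. These medians correspond to 1.57-fold and 1.53-fold higher levels. Chromosome 18 was the 1 chromosome of 20 on which the fl/fl samples lay outside the mutant range, in untreated and in treated samples alike. Such a shift was not limited to fl/fl cells. On chromosome 16 the ΔC/- samples had 0.4 to 0.616 untreated, against at most 0.117 in all other untreated samples. Their treated values there were 0.263 to 0.541, against at most 0.06. On chromosome 4 the untreated ΔC/- samples, at -0.327 to -0.219, lay below all others, which were at -0.114 or higher. With 7 genotypes, no arrangement of genotype labels could give a share below 0.143, so no p is given.

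The shift ran along the whole chromosome. In all 9 blocks of 10 Mb with at least 10 such genes, the mean of the untreated fl/fl samples was 0.56 to 0.85 on the log2 scale, and 0.36 to 0.76 in the treated ones. Single blocks rest on 16 to 87 genes, and in 3 of the 9 all 4 fl/fl samples lay above every mutant sample. In the treated samples this held for 3 blocks too, of which 2, from 60 to 80 Mb, were the same. Of 365 tested genes on chromosome 18, 290 (79.5%) had a positive untreated difference, against 47.5% of all genes, and in the treated samples 273 of 360 (75.8%) did, against 45.0%. When each sample's chromosome medians were removed from its values, a step chosen after seeing the data, 7 of the 37 chromosome 18 genes stayed above the mutant range, 36 of the 365 genes of the chromosome lay below it, and the total was 155 higher and 190 lower genes. Chromosome 6 had a median of 0.42 ± 0.03 in the untreated fl/fl samples, but the dm/- samples reached 0.50. On chromosome 14 the blocks from 40 Mb onwards had fl/fl means of 0.48 to 0.72, while those before had -0.18 to -0.15, and both overlapped the mutant samples. No DNA was measured, and whether gene copies differed between the lines was not tested.

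**Figure D4:**
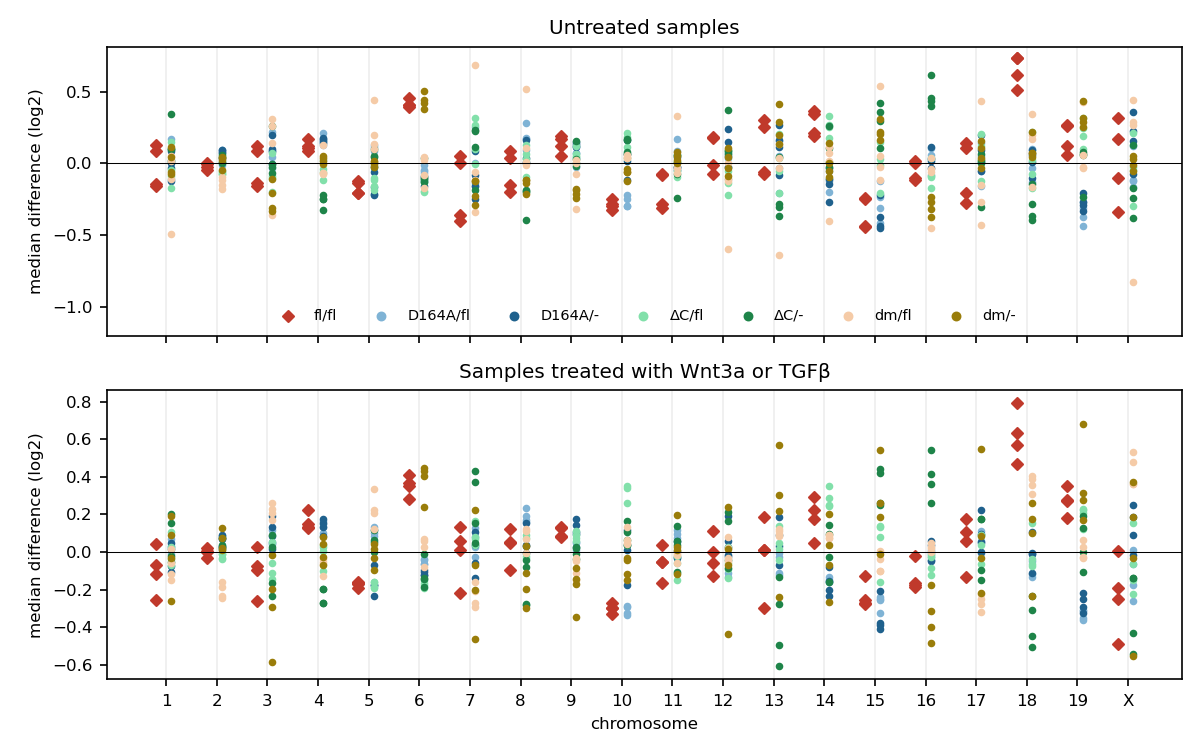
Median log2 difference of each sample from the mean of the mutant genotypes (vertical axes), for each chromosome (horizontal axis), in untreated (top) and treated (bottom) samples, with fl/fl samples as red diamonds and mutant samples as colored circles. On chromosome 18 the fl/fl samples lie between 0.47 and 0.79 and above every mutant sample, and on the other chromosomes they overlap the mutant samples.

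Smaller runs of neighbors were found elsewhere. Near the end of chromosome 5, N4bp2l2, Pds5b, Stard13 and Rfc3, from 150599931 to 151651208, were 4 consecutive higher genes, although chromosome 5 held 21 lower against 12 higher genes in all. On chromosome 13, Nr2f1, a nuclear receptor, and its neighbor A830082K12Rik were both lower. These 2 runs were named after their values were seen.

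The gene lists were tested over all genes, not only the range-separated ones. In the untreated samples, 819 of 13340 genes (6.14%) were called higher and 945 (7.08%) lower in fl/fl cells by limma, 13.2% in all. Range-separated genes are counted in these lists too, where their direction was fixed by the rule. With the spread between mutant genotypes counted as error, the numbers were 357 and 320, and with 1 mean per genotype 17 and 3. Most calls of the lists below were therefore lost with 1 mean per genotype. Of the genes given with an untreated difference here, Ccl2, Cdkn2a, Col6a1, Csn3, Dmrta1, Hoxa10, Id2, Ifit2, Itga2, Lcn2, Lgr6, Tcf7, Trp63, Wnt4, Wnt5a, Wnt7a, Wnt10a and Xist lost their call in the first of these fits (limma adjusted p = 0.0526 for Ifit2 to 0.5 for Lcn2), and edgeR on reads did not call Cdkn2b, Csn3, Hoxa10 and Wnt5a.

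In the Wnt pathway, ligands moved in both directions, with 3 of 10 tested genes higher and 2 lower. Wnt7a had 138, 164.1, 139.9 and 136.5 CPM and Wnt10a 48.4, 53.1, 34.3 and 78.3 CPM in the fl/fl samples (log2 differences 2.84 and 2.95, standard errors 0.22 and 0.21, adjusted p = 1.26e-08 and 3.15e-09). Some mutant genotypes were higher still, as Wnt7a reached 305.5 CPM in dm/- and Wnt10a 109.8 CPM in ΔC/- samples. Wnt4 and Wnt5a were lower (log2 differences -1.95 and -1.74, adjusted p = 1.35e-05 and 1.26e-08). Of 15 receptors and co-receptors, Fzd2 and Lgr6 were lower (-2.10 and -1.78) and none higher. Of 21 genes of the destruction complex and nuclear partners, the 4 called were all lower, Dvl2, Tcf7, Tcf7l1 and Lef1, the last 3 of which are TCF/LEF factors. The other TCF/LEF factor of the list, Tcf7l2, was not called (log2 difference -0.454, adjusted p = 0.026), and the direction of Lef1 was fixed by the rule. Tcf7 was at 5.79 to 10.8 CPM against 6.28 to 55.7 CPM (log2 difference -1.18) and Tcf7l1 at 0.307 to 2.28 against 0.745 to 16.3 CPM (-1.72, adjusted p = 5.15e-05). Among 12 targets and feedback inhibitors, Nkd2 and Cd44 were higher and Rnf43, Notum and Sfrp1 lower. Axin2, the common readout of the pathway, was not called, at 0.161 to 1.46 against 0 to 7.12 CPM (log2 difference -0.40, adjusted p = 0.237).

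Markers of mammary cell types split within each list. Of 25 luminal genes, 6 were higher, among them Krt19 and Lcn2 (log2 difference 1.93, adjusted p = 0.0044), and 6 were lower, among them the luminal factors Gata3, Foxa1 and Esr1 and the casein gene Csn3 (-2.76). Csn3 rested on D164A/fl and D164A/- samples, at 34.2 to 5387 CPM, while all other mutant samples had at most 5.22 CPM. Of 18 basal genes, 4 were higher and 6 lower. Trp63, the basal factor p63, had 77.9, 49.3, 113 and 71.1 CPM in fl/fl cells (log2 difference 2.57, standard error 0.29, adjusted p = 1.54e-06), whereas Krt5 had 0.978 to 2.96 CPM (log2 difference -0.74, adjusted p = 0.103) and Krt14 227 to 597 CPM (0.79, adjusted p = 0.247). Of 22 genes of epithelial-mesenchymal transition, 6 were higher, led by Prrx1 and the matrix protein gene Tnc, at 643 to 1094 CPM (log2 difference 3.59, adjusted p = 1.25e-09), and 5 were lower, Vim, S100a4, Postn, Sparc and Spp1. Pdgfra, a receptor of fibroblasts, had 3.37 to 5.80 CPM against 5.13 to 302 CPM (log2 difference -2.85, adjusted p = 3.86e-08).

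In the matrix and adhesion lists, calls went in both directions. Of 26 basement membrane and collagen genes, 9 were higher and 6 lower. Those higher included the basement membrane genes Col4a2, Col4a6, Lama3 and Nid1 and the fibril-associated Col12a1, and those lower were Col4a5, also of basement membranes, and Col5a1, Col5a2, Col6a1, Col6a2 and Col16a1. Col6a1 had at most 0.805 CPM in fl/fl cells (log2 difference -3.19, adjusted p = 9.33e-06) but was at most 0.157 CPM in ΔC/- cells too. Of 17 integrins, 4 were higher, with Itga2 and Itgb6 at 24.8 to 61.2 and 32.6 to 104 CPM (log2 differences 3.36 and 3.06), and 3 lower. Of 9 caveolar genes, 3 were higher and none lower, namely Cavin1 at 158 to 306 CPM (log2 difference 4.49, adjusted p = 9.03e-13), Cav1 and Cavin3. Of 16 chemokines, 6 were higher, among them Cxcl5 and Cxcl3 (log2 difference 5.21), and 4 lower, among them Ccl2 (-2.71) and Cxcl12.

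In signaling and growth lists, 3 of 27 TGFβ genes were higher and 7 lower, the latter with Id2 at 1.83 to 11.6 CPM (log2 difference -3.28, adjusted p = 2.03e-07), Tgfb3 and Inhbb. Of 24 interferon-stimulated genes, 5 were higher and none lower, with Ifit2 at 21.4 to 63.8 CPM (log2 difference 2.34). Of 25 receptor tyrosine kinase and ERK feedback genes, Egfr was the 1 called higher and 7 were lower. For the Cdkn2a region and cell cycle inhibitors, 1 of 12 was higher and 3 lower, with Cdkn2a and Cdkn2b at log2 differences of -2.77 and -3.98 (adjusted p = 3.01e-05 and 8.06e-10). Of 15 imprinted genes, Mest and Snrpn were higher and Igf2, Plagl1, Peg10 and Sgce lower. Peg10 and Sgce, which are neighbors, had no read in any untreated fl/fl sample. Neither was range-separated, so a lack of reads was not limited to the fl/fl cells. Of 20 glycolysis and hypoxia genes, 4 were higher (Adm, Slc16a3, Car9 and Pfkp) and Egln3 was lower. Of 17 genes of the IGF system, 2 were higher and 3 lower. The X inactivation RNA Xist, at 854 to 1916 CPM, was called higher (log2 difference 2.17, adjusted p = 0.00231), with dm/- samples at no more than 0.909 CPM, and was the 1 call among 7 genes of its list. Lists with few or no calls were DNA replication and mitosis (Ccnb1 higher of 22), cholesterol and fatty acid synthesis (0 of 18), antigen presentation (1 lower of 13), leukocytes (1 higher and 1 lower of 3), fibroblasts (2 lower of 7), endothelium (0 of 1) and adipocytes (0 of 2).

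**Figure D5:**
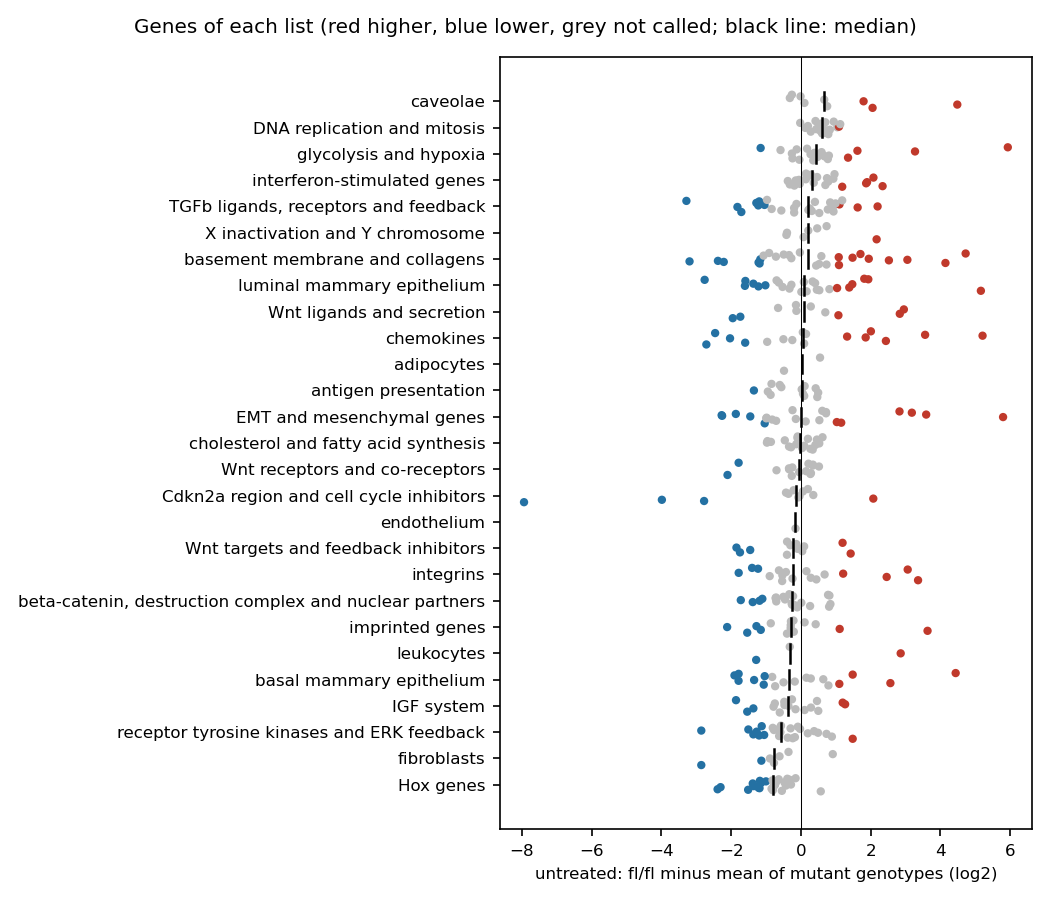
Log2 difference between untreated fl/fl cells and the mean of the mutant genotypes (horizontal axis) for the tested genes of each list (vertical axis), 1 point per gene, with genes called higher in red, lower in blue and others in grey, and the list median as a black line. The Hox genes have the lowest median, -0.79, with 10 genes called lower and none higher.

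Genes near Ctnnb1 were examined because the floxed and mutant alleles lie there. Of 63 tested genes within 5 Mb of Ctnnb1, 5 were called higher and 3 lower. Over all 13340 genes, 6.14% were called higher and 7.08% lower, 13.2% in all, so the count near Ctnnb1 was close to that share. Eomes, a T-box factor, was range-separated, at 10.0, 4.87, 8.58 and 5.80 CPM against 0.0791 to 3.24 CPM. Within the same distance of Mtap, 4 of 24 genes were higher and 6 lower. The range-separated genes Gm12610 and Mtap, whose direction the rule fixed, lie in this window.

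Whether the fl/fl difference was the same in the untreated samples of both experiments was tested with an interaction term. In limma it called 12 of 13340 genes (0.09%), 11 with a more positive value in the TGFβ experiment (0.0825%) and 1, Lox, with a less positive one (0.0075%). No gene was called by edgeR, 7 and 0 were called with the replicate number as a block, and leaving out single fl/fl samples moved the 11 to between 0 and 37 and the 1 to between 1 and 12. At an unadjusted p under 0.05, 939 of 13340 genes passed in limma and 1061 in edgeR, where a share of 0.05 would pass by chance alone. Without single fl/fl samples the limma count ran from 248 to 1114.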

How the data were processed

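RNA of 56 cultured mammary tumor cell samples was sequenced. The authors aligned reads to mm10 with STAR, counted them per RefSeq gene, and deposited a signal table of reads divided by an effective library size, here called CPM. Every value was a whole number of reads (tolerance 0.001 reads). Entrez IDs were matched to RefSeq GRCm38.p6 (20261 of 20314), whose positions are printed. Strand use in counting is not given in the sources used here.

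Groups came from the labels. The main test was limma 3.58.1 (R 4.3.3, trend) on log2(CPM + 1), with 14 conditions per fit, a filter of at least 1 CPM in at least 2 samples, Benjamini-Hochberg adjustment over all genes tested, and calls from an adjusted p of 0.05 or less together with a log2 difference of 1 or more. edgeR 4.0.16 on the recovered reads was an alternative. The fits were tested on simulated data. P-values cover the spread of samples, not of lines, and read limits cover counting error only. Named genes were the 15 widest gaps per direction, range-separated genes of the lists, up to 4 genes per list, and neighbors. A few others, among them Axin2, Dsc2, the boundary genes and further examples of list calls, were chosen after their values were seen. A few further genes are not reported here. The members and lists were chosen with earlier results of these data known.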

Additional observations from a re-analysis of the deposited data

Results flagged for a closer look

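In 9 of 312 groups of 4 fl/fl values looked at, 1 sample stood apart by Dixon's ratio, where chance gives about 1 group in 20. The ratios in treated samples were 0.839 for Ccl2 (2.71 CPM against 0.204 to 0.444), 0.85 for Fndc3c1 (12.9 against 2.75 to 3.57), 0.883 for Krt18 (1387 against 1179 to 1202), 0.904 for Mex3c (79.9 against 267 to 304), 0.908 for Pfkp (207.9 against 88.5 to 95.7) and 0.951 for Sulf1 (72.8 against 60.1 to 60.7). In untreated samples they were 0.872 for Dmrta1 (20.3 against 3.26 to 4.23), 0.843 for Insig1 (19.3 against 43.5 to 50.5) and 0.865 for Wnt7a (164.1 against 136.5 to 139.9).

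The fl/fl difference differed between the untreated samples of the 2 experiments in 12 genes by limma's interaction term. The difference was more positive in the TGFβ experiment by 1.51 (log2) for Acp7, 2.34 for Elf5, 3.74 for Igfbp5, 1.16 for Pde1c, 1.15 for BC016548, 1.35 for Syne4, 1.75 for Adamts15, 2.52 for Trpv6, 1.48 for Plxdc2, 1.15 for Cpt1c and 2.18 for Crispld2, and for Lox it was -1.52. Elf5, a luminal progenitor factor, had fl/fl means of 1.02 CPM in the Wnt3a and 6.16 CPM in the TGFβ experiment (limma adjusted p = 0.00709), and mutant means of 92.3 and 107 CPM. Igfbp5, an IGF-binding protein, had fl/fl means of 3.54 and 61.5 CPM and mutant means of 1876 and 2364 CPM. These are means of CPM, in which high samples weigh most. Over both experiments neither Elf5 nor Igfbp5 was range-separated or called in the untreated samples (log2 differences -0.524 and -0.355, limma adjusted p = 0.0192 and 0.444). Lox had fl/fl means of 791.5 and 339 CPM (adjusted p = 0.0474). The cause was not tested.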

How the results depend on the processing

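In the untreated comparison, 819 higher and 945 lower genes became 17 and 3 with 1 mean per genotype, 357 and 320 with fl/fl against mutant as 2 groups, 535 higher in the Wnt3a experiment only, and 1700 lower with a pseudocount of 0.1. Without single fl/fl replicates they were 782 to 841 and 854 to 983. The range rule gave 41 higher and 17 lower genes with a gap of at least 2-fold and 216 lower with each sample's GC trend removed, and 192 to 306 higher and 149 to 276 lower without single replicates. In treated cells, 1 mean per genotype called 25 higher and 2 lower. Of the range-separated genes, 146 higher and 92 lower lay outside the range in treated cells with Wnt3a only, and 145 and 102 with TGFβ only. With the samples of 1 experiment, fewer values have to be apart, so a gene passes more easily than over both experiments. No share over all genes is given for that looser rule, so these counts do not show a stronger separation. For the difference between experiments, 11 and 1 became 1 and 0 with the GC trend removed, 0 and 0 with edgeR, 2 and 0 with a pseudocount of 0.1, and 2 lower with no filter; without single replicates they ran from 0 to 37 and from 1 to 12. Differences of genes that were not called changed sign for Axin2 (0.23) and Krt5 (0.23) with edgeR, for Ctnnb1 (0.084) and Krt14 (-0.20) in the Wnt3a experiment only, and for Kif27 (-0.47) with TGFβ only. The cause was not tested.

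The replicate number was used as a block in another fit. The deviations of fl/fl samples and of same-numbered mutant samples had correlations of -0.408 to 0.405 (untreated) and -0.801 to -0.171 (treated) in the Wnt3a experiment, and of 0.0372 to 0.399 and 0.167 to 0.466 in the TGFβ experiment. In the TGFβ experiment these correlations were all positive, some of them weak. In the Wnt3a experiment they had both signs in untreated samples and were all negative in treated ones. The replicate number is therefore not taken as a pairing over both experiments. With the replicate block, 818 higher and 939 lower genes were called untreated, 115 and 89 treated, and 7 and 0 for the difference between experiments. Of the range-separated genes, rescaling by the median of ratios kept 167 of 185 higher and 136 of 141 lower, scaling to the plain library total 145 and 135, and removal of the GC trend 130 and 93. With the plain library total the rule gave 146 higher and 169 lower genes in all. Which direction held more genes therefore depended on the scaling.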
